A study of Mus musculus with 73 samples.

Results

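The comparison described here set the extraembryonic ectoderm (ExE) against the epiblast of mouse embryos in which Rnf2 had been disrupted, and asked which differences between these lineages persist, shrink or appear relative to the wild type. The libraries were those labelled with the Rnf2 genotype, 6 from epiblast and 5 from ExE, which are 11 of the 72 RNA libraries in the deposited table. Genes were the autosomal genes of that table, of which 10943 of 29557 had enough reads to be tested. All embryos were collected at E6.5, shortly after implantation, when gastrulation begins.

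Each library held RNA from the epiblast or the ExE of a single embryo, bisected by hand and stripped of visceral endoderm. The Rnf2 embryos were Bdf1xCast: superovulated BDF1 mothers (a hybrid of C57BL/6 and DBA) gave the oocytes, CAST sperm was injected into them, and the zygotes received Cas9 mRNA with 3 to 4 guide RNAs against different exons of Rnf2 before blastocyst transfer to CD-1 females. Each knockout embryo was thus edited on its own, and the edit that each carries is not given in the sources used here. The wild-type reference was the Bdf1xCast group with 7 embryos in each tissue, which per the labels' protocols came from sperm injection too. A second wild-type group, CastxBdf1, had 4 embryos in each tissue and came from natural mating, so its cross and its mode of fertilisation cannot be told apart. Embryos labelled as Eed knockouts, made by the same injection in the same Bdf1xCast cross, had 9 epiblast and 10 ExE libraries. Replicates were numbered by embryo. Rnf2 embryos 2, 5 and 6 gave both tissues, embryos 1, 3 and 8 only epiblast, and embryos 4 and 7 only ExE.

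Rnf2 encodes RING1B, the main E3 ubiquitin ligase of Polycomb repressive complex 1 (PRC1). The complex ubiquitylates histone H2A at the promoters of many developmental genes and is known for holding them silent, alongside PRC2, whose subunit Eed is needed for methylation of histone H3. Variant forms of PRC1 that contain E2f6 and Mga are known for silencing germ cell genes in embryonic cells. The epiblast gives rise to the embryo proper, and its posterior side forms the primitive streak. The ExE is a trophoblast tissue that gives rise to part of the placenta, and its Bmp ligands signal to the neighbouring epiblast.

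Germ cell genes were among the genes that stood higher in both tissues of the Rnf2 embryos, so promoters of 4 of them are shown first. RefSeq windows on GRCm38.p6 covered the 250 bases before the start of the gene. Sycp1 codes for a synaptonemal complex protein, Ddx4 for a germ cell RNA helicase, Fkbp6 for a meiotic immunophilin-like protein and Tex101 for a germ cell surface protein. Ddx4 and Fkbp6 were chosen after their values were seen. Each window lies on the minus strand, at chr3:102936101-102936350 for Sycp1, chr13:112652311-112652560 for Ddx4, chr5:135350045-135350294 for Fkbp6 and chr7:24672051-24672300 for Tex101. Sequences run 5′ to 3′ and capitals mark CG dinucleotides and matches to CACGTG, an E-box of the kind bound by Mga with Max, or to GGCGGGAA, an E2f-type motif.
Sycp1: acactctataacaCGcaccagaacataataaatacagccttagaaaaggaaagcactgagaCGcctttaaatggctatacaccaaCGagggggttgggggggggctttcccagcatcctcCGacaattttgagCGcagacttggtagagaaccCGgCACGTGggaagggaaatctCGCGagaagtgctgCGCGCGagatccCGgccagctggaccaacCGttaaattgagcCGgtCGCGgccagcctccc
Ddx4: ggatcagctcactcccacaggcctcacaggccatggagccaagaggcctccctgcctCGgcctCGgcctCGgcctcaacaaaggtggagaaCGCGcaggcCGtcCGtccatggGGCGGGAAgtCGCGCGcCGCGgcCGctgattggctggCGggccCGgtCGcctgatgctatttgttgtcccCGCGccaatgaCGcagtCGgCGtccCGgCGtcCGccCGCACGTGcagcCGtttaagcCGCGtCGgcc
Fkbp6: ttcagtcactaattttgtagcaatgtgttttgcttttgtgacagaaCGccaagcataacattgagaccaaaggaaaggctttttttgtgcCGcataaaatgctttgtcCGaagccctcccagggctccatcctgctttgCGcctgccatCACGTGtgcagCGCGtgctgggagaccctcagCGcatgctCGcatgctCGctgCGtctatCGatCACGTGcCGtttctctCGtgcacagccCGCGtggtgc
Tex101: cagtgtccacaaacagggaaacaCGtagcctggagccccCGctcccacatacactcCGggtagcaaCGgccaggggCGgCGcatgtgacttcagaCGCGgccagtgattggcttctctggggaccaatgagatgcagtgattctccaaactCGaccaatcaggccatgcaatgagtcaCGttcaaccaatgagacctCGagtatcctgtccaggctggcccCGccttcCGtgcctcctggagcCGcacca

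The windows hold 17, 31, 17 and 14 CG dinucleotides in that order, against a median of 15 over the 22 germline and meiosis genes with a window, 16 over the 8178 tested genes with one and 6 over all 27025 promoters of the RefSeq table. CACGTG, which reads the same on both strands, is present in the windows of Sycp1, Ddx4 and Fkbp6, and GGCGGGAA, searched on both strands, is present in that of Ddx4. The Tex101 window holds neither run of letters. Of the 25 germline and meiosis genes tested here, 22 had a window. CACGTG was in 10 of these 22 (45.45%) against 692 of the 8178 tested genes with a window (8.46%) and 1633 of the 27025 promoters (6.04%). GGCGGGAA was in 3 of 22 (13.64%) against 289 of the tested genes (3.53%) and 516 of all promoters (1.91%). Since only 74.7% of the tested genes have a window, their shares are a description of those that do. A match describes the sequence only.

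The RNA of the targeted gene was looked at before the lineages. Its level in Rnf2 epiblast was 26.5 ± 6.42 CPM (SD, n = 6), where CPM is a gene's reads scaled to the library total, from 19.3 to 33.4 with a median of 26.6, against 32.8 to 56.6 with a median of 45.6 in wild-type epiblast. In Rnf2 ExE the 5 libraries of embryos 2, 4, 5, 6 and 7 had 29.6, 22.4, 39.5, 62.7 and 21.9 CPM, against 21.4 to 65.9 with a median of 51.7 in wild-type ExE. Rnf2 fell in epiblast by 0.82 on the log2 scale (edgeR adjusted p 0.0146), with 4 of 6 libraries under the lowest wild-type one. In ExE it differed by -0.41 (edgeR adjusted p 0.315), and none of the 5 libraries lay below the wild-type range. The tissues of the Rnf2 embryos did not differ in Rnf2 beyond the spread (log2 difference 0.44, edgeR adjusted p 0.19). Reads over the whole gene do not show whether its coding frame was cut, and a lower level in the libraries labelled Rnf2 ExE was not detectable with these spreads. Counts were also taken without embryos 2, 5 and 6, the ExE libraries with the highest Rnf2.

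Total reads per library ranged from 5549733 to 17653087 in Rnf2 epiblast and from 1847681 to 10263280 in Rnf2 ExE, against 1311863 to 3053690 over both wild-type tissues, so the Rnf2 libraries were the deeper ones. The summed CPM of 7 epiblast markers was 1083 to 1814 in Rnf2 epiblast and 365.2 to 579.1 in Rnf2 ExE, all above the 147.6 to 317.2 of wild-type ExE. Most of it in Rnf2 ExE was Utf1, at 358.9 to 550.3 CPM. In the wild type Utf1 stood higher in ExE than in epiblast, so this sum is a weak measure of epiblast RNA in ExE. The summed CPM of 7 ExE markers was 500.9 to 1078 in Rnf2 ExE and 25.2 to 142.5 in Rnf2 epiblast, against 27.1 to 228.7 in wild-type epiblast, where Eomes held most of it. The sum of 8 visceral endoderm markers was 12.3 to 88.8 in Rnf2 epiblast, the highest in embryo 6, and 22.3 to 49.2 in Rnf2 ExE against 12.8 to 27.5 in wild-type ExE. The sum of 5 primitive streak markers was 18.0 to 276.4 in Rnf2 epiblast. Of 6 blood and decidua markers in the table, all stood at 0 in every Rnf2 ExE library. Wild-type epiblast embryo 8 stood apart, with the lowest depth, 1024 CPM of streak markers and 455.1 of visceral endoderm markers.

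Elf5, a transcription factor that defines ExE, marks a split among the Rnf2 epiblast libraries. Embryos 3, 5 and 6 had 0.246, 0.504 and 0.721 CPM of Elf5, within the wild-type epiblast range of 0 to 3.81. Embryos 1, 2 and 8 had 16.5, 16.7 and 50.0 CPM, all above that range. Rnf2 ExE had 222.8, 172.8, 234.3, 707.6 and 374.4 CPM in embryos 2, 4, 5, 6 and 7. In bulk samples, fewer cells of a type and less RNA per cell cannot be told apart. Without embryos 1, 2 and 8, the counts described below were 4723 in place of 5192 genes that differed between the Rnf2 tissues, 460 in place of 685 changes, 3706 in place of 3926 that persisted, 341 in place of 542 that shrank, 44 in place of 49 that grew and 75 in place of 93 that appeared. The allelic counts were 218 in place of 247 and 30 in place of 25.

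Most lineage differences of the wild type were present in the Rnf2 embryos. ExE and epiblast differed in 5192 of 10943 genes of the Rnf2 embryos (47.4%), 2285 higher and 2907 lower in ExE, and in 6513 genes of the wild type (59.5%), 3120 higher and 3393 lower. The libraries of the 2 Rnf2 tissues did not overlap for 3735 genes (34.1%). The difference itself changed between Rnf2 and wild type in 685 genes (6.26%), moving up in 220 and down in 465. All 3 tests came from 1 edgeR quasi-likelihood fit over 25 libraries with Benjamini-Hochberg adjustment at 0.05. The change test gave 331 genes with embryo as a block, which leaves only the 3 paired Rnf2 embryos to the tissue difference, 204 without Rnf2 ExE embryos 2, 5 and 6, and 257 against the CastxBdf1 wild type. With all libraries thinned to 1311863 reads it gave 435 genes.

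From these tests each gene was put in a class. A difference persisted where it was called in both genotypes in the same direction with no call for its change. This held for 3926 genes, or 35.9% of those tested and 60.3% of those called in the wild type. The difference shrank in 542 genes (8.32% of those called in the wild type), where the change was called and ran against the wild-type difference. It grew in 49. It appeared in 93 genes, called in Rnf2 and not in wild type with the change called. A further 1996 genes were called only in the wild type and 831 only in Rnf2 with no call for the change, and these are not counted as lost or gained. Among the genes that persisted, the median size of the log2 difference was 1.33 in Rnf2 and 1.54 in wild type, and the Rnf2 value was the smaller in 2476 of 3926 (63.1%).

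**Figure D1:**
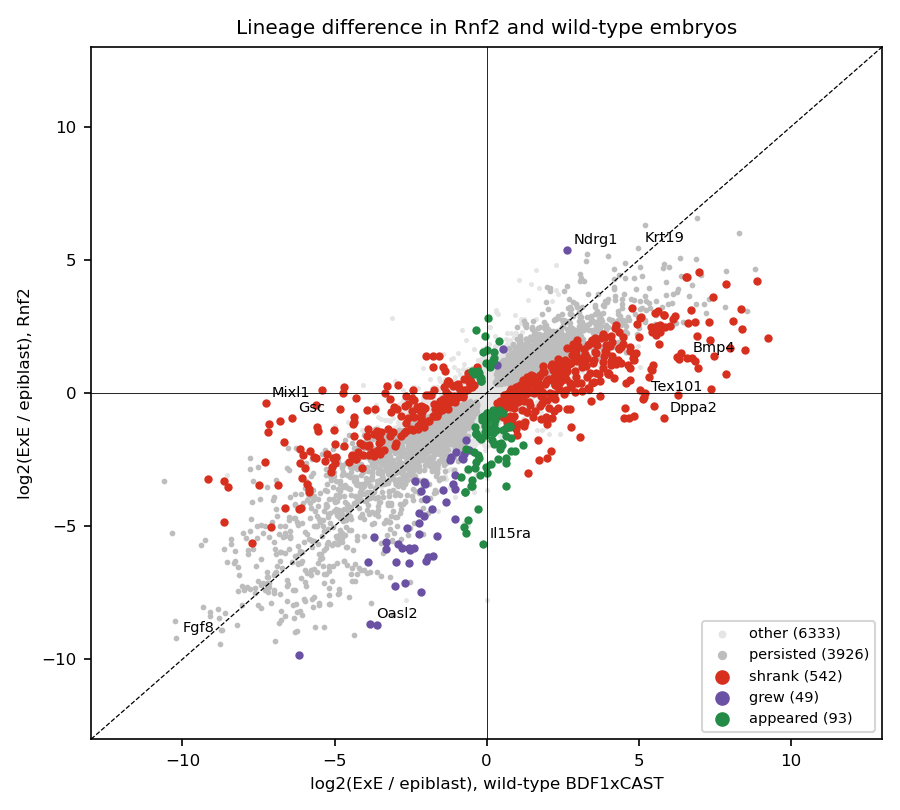
Log2 difference between ExE and epiblast for each of the 10943 tested genes, wild-type Bdf1xCast on the horizontal axis and Rnf2 on the vertical axis, coloured by class. Most genes lie along the diagonal, while the 542 that shrank lie between the diagonal and the horizontal zero line or across it, and the 93 that appeared lie near 0 on the wild-type axis.

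The genes that mark the epiblast persisted in large part. Of 23 tested genes of an epiblast identity list, 21 stood lower in Rnf2 ExE than in Rnf2 epiblast and 19 did so in the wild type. Over all 10943 genes these counts were 2907 and 3393. The median log2 difference of the list was -5.26 in Rnf2 and -4.64 in wild type against -0.07 and -0.05 over all genes. In this list 16 genes persisted, against 35.9% of all genes, 2 grew and 1 shrank. With the embryo block 18 persisted, 0 grew and 1 shrank. Fgf5, a growth factor of the primed epiblast (chromosome 5, 98254183 to 98277033, mm10), had 262.6 to 486.0 CPM with a median of 409.9 in Rnf2 epiblast. Its 5 ExE libraries had 1.02, 0.974, 0.541, 1.83 and 2.43 CPM. No library of either tissue came near the other, with a log2 difference of -8.05 (edgeR adjusted p 1.12e-17) beside -9.33 in wild type. Otx2, a transcription factor of the anterior epiblast, fell from a mean of 48.9 CPM in Rnf2 epiblast to 0.248 in ExE (-7.22, edgeR adjusted p 5.53e-12), and the Nodal co-receptor Tdgf1 from 403.7 to 1.46 (-7.97, edgeR adjusted p 1.95e-07). Sulf1, an enzyme that trims heparan sulfate, stood at a mean of 32.8 CPM in Rnf2 epiblast and had reads in 1 of 5 ExE libraries. Cyyr1 had 8.10 to 26.7 CPM in Rnf2 epiblast and 0 reads in all 5 ExE libraries, so it was at least 206-fold lower in ExE, with 3 reads over the group as the floor.

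Many ExE genes persisted as well. Of 22 tested genes of an ExE identity list, 20 stood higher in ExE of the Rnf2 embryos, where 2285 of all 10943 genes did. In this list 12 persisted, against 35.9% of all genes. Tfap2c, a trophoblast transcription factor, differed by 4.18 in Rnf2 (edgeR adjusted p 4.11e-07) and by 5.91 in wild type, and the change did not pass the test (edgeR adjusted p 0.179). Elf5 differed by 4.60 in Rnf2 (edgeR adjusted p 4.18e-05) and by 7.86 in wild type, with a change of -3.26 that did not pass either (edgeR adjusted p 0.14). Krt19, an epithelial keratin of trophoblast, had 254.8, 383.3, 192, 278 and 94.2 CPM in Rnf2 ExE and 1.597 to 8.67 in Rnf2 epiblast, with a difference of 5.44 (edgeR adjusted p 6.48e-10) close to that of 4.99 in the wild type. Tfeb, a transcription factor of lysosomal genes that is needed in the placenta, stood at 18.8 ± 6.14 CPM in Rnf2 ExE (n = 5) against 7.31 ± 2.65 in wild-type ExE (n = 7), and at a mean of 0.289 in Rnf2 epiblast (difference 6.02, edgeR adjusted p 1.3e-09).

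Many of the differences that shrank were ExE genes with a higher level in Rnf2 epiblast than in wild-type epiblast. Of the 542 genes, 345 stood higher in ExE of the wild type, and their median log2 difference went from 2.61 in wild type to 0.58 in Rnf2. Between the epiblasts, 3685 of all 10943 genes differed (33.7%), 2264 higher and 1421 lower in Rnf2. Of the 345, 297 rose in Rnf2 epiblast, 246 of them with no call in ExE. Between the ExE groups, 1914 of all genes differed (17.5%), 1160 higher and 754 lower, and 69 of the 345 fell in Rnf2 ExE. After the change, 151 of the 345 still stood higher in ExE, 164 were not called and 30 stood higher in epiblast. Without Rnf2 epiblast embryos 1, 2 and 8 the number of genes that shrank was 341, of which 308 were among the 542. With the embryo block it was 261, without Rnf2 ExE embryos 2, 5 and 6 it was 167, and against CastxBdf1 it was 205, of which 114 were among the 542. Among genes named in the following, the changes of Gata3, Plet1, Wnt6, Tex19.1, Fkbp6, Mesp2, Gata4, Irx2, Gdf3, Psmb8, Etv5, Pcgf5, Dnmt3l and Slc37a4 kept their direction without those ExE embryos, and their edgeR adjusted p then lay between 0.0505 (Psmb8) and 0.142 (Gdf3). With the embryo block the changes of Il15ra (edgeR adjusted p 0.0891), Wnt6 (0.115), Gata3 (0.0937), Tex19.1 (0.0994) and Etv5 (0.0538) missed the threshold. The epiblast and ExE values of the 542 were part of the change test, so these counts describe where it arose.

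Dppa2 (chromosome 16, 48310273 to 48319513, mm10), a chromatin regulator known from pluripotent cells, lost its wild-type difference. Rnf2 epiblast had 26.0 to 134.4 CPM with a median of 86.9, and Rnf2 ExE had 37.9, 8.28, 50.9, 45.6 and 67.3 CPM. Wild-type epiblast had 0.363 to 2.94 CPM with a median of 1.21, and wild-type ExE 45.5 to 106.1 with a median of 58.3. Every Rnf2 epiblast library lay far above all wild-type ones, and the 2 Rnf2 tissues overlapped. The difference went from 5.82 in wild type to -0.94 in Rnf2 (edgeR adjusted p 0.0695), a change of -6.76 ± 0.725 (SE, edgeR adjusted p 5.94e-07). It held against CastxBdf1 at -5.80 (edgeR adjusted p 0.0096). The neighbouring Dppa4, which works with Dppa2 and was chosen after its values were seen, changed by -6.38 (edgeR adjusted p 2.48e-09). Its mean in Rnf2 epiblast was 204.5 CPM against 6.63 in wild type, while its mean in ExE fell from 491.2 to 189.3 CPM (-1.42, edgeR adjusted p 0.00315).

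Among the 22 ExE identity genes the difference changed in 8, all downward, of which 7 shrank and 1 appeared, and 13 of the 22 rose in Rnf2 epiblast. The median change of the list was -1.77 against -0.04 over all genes, of which 6.26% changed. Bmp4, the ExE ligand that signals to the proximal epiblast (chromosome 14, 46383524 to 46390669), had 3.78 to 24.4 CPM with a median of 7.29 in Rnf2 epiblast and 0 to 1.21 in wild-type epiblast. In Rnf2 ExE it had 19.6, 2.83, 41.7, 31.2 and 37.1 CPM against 27.7 to 93.8 in wild-type ExE, so its lineages drew together from both sides. The change was -5.26 ± 0.819 (SE, edgeR adjusted p 0.00017), and the reads may be shared with the overlapping gene Gm15217. Zfp42, a marker of naive pluripotency that the ExE also expresses, changed by -2.92 (edgeR adjusted p 0.000842) and Gata3, a trophoblast transcription factor, by -3.20 (edgeR adjusted p 0.0186). The count of 8 was 5 with the embryo block, 5 without Rnf2 epiblast embryos 1, 2 and 8, 4 without Rnf2 ExE embryos 2, 5 and 6, and 2 against CastxBdf1, where Bmp4 changed by -3.65 (edgeR adjusted p 0.0838), Zfp42 by -1.75 (edgeR adjusted p 0.214) and Gata3 by -1.65 (edgeR adjusted p 0.242). Gata3 missed the threshold without epiblast embryos 1, 2 and 8 too (-2.37, edgeR adjusted p 0.114).

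**Figure D2:**
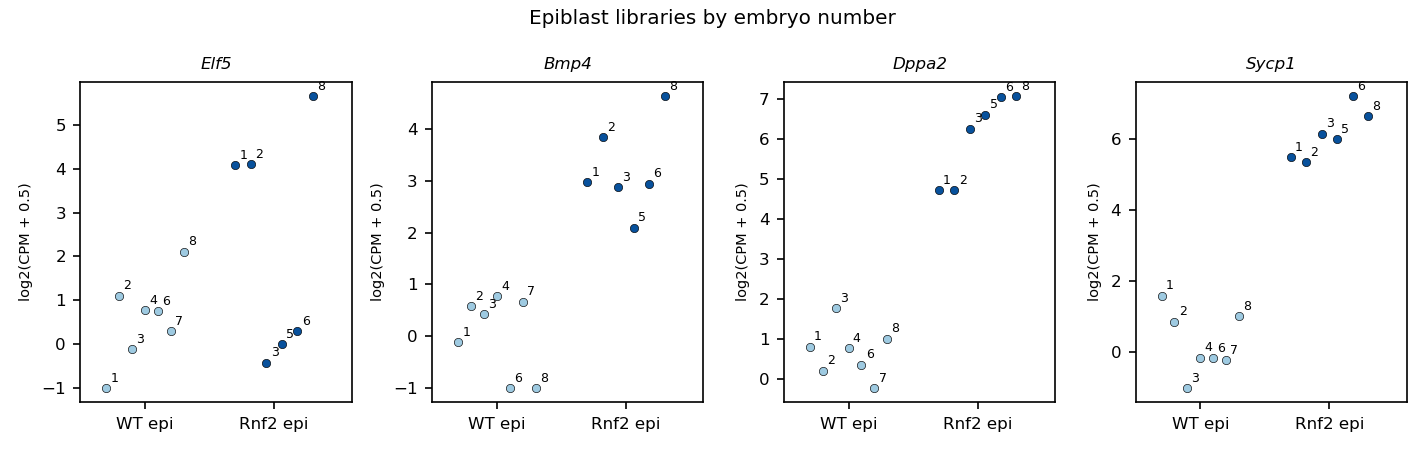
Log2(CPM + 0.5) of Elf5, Bmp4, Dppa2 and Sycp1 in each epiblast library of Rnf2 and wild-type Bdf1xCast, with embryo numbers. Rnf2 embryos 1, 2 and 8 carry the most Elf5, up to 50.0 CPM, while Dppa2 and Sycp1 are above all wild-type libraries in all 6 Rnf2 embryos, including embryos 3, 5 and 6.

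Sfmbt2, a Polycomb-group gene expressed from the paternal allele in trophoblast (chromosome 2, 10370436 to 10595253), stood at 31.7 to 111.2 CPM with a median of 64.6 in Rnf2 epiblast against 0.66 to 11.4 in the wild type. Rnf2 ExE had 454, 433, 443, 326 and 359 CPM against 359.9 to 617.9 in wild-type ExE. The epiblasts did not overlap while the ExE groups did, and the difference went from 6.62 to 2.63, a change of -3.98 (edgeR adjusted p 5.94e-07; -2.36 and 0.0318 against CastxBdf1). MicroRNA genes lie within Sfmbt2 and their reads could be counted with it. Bmp8b, another Bmp ligand of the ExE, changed by -3.60 (edgeR adjusted p 1.77e-05; -2.35 and 0.0756 against CastxBdf1). Wnt6, a secreted Wnt ligand, changed by -4.67 (edgeR adjusted p 0.0038; -4.38 and 0.0431 against CastxBdf1). Plet1, a surface protein of early trophoblast, ran from 13.5 to 366.2 CPM across the 6 Rnf2 epiblasts against 1.98 to 15.3 in wild type, and changed by -5.06 (edgeR adjusted p 0.00127; -3.79 and 0.14 against CastxBdf1). It overlaps Plet1os.

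Many of the tested germline and meiosis genes rose in both tissues. Of 42 in the deposited table, 25 had enough reads to be tested. Of these 25, 20 rose in Rnf2 epiblast and 17 in Rnf2 ExE, where 2264 and 1160 of all 10943 genes rose. None of the 25 fell in either tissue. Median log2 differences from wild type were 3.08 in epiblast and 1.97 in ExE against 0.03 and 0.01 over all genes. Members silent in wild type pass the read filter only through the Rnf2 libraries, which favours members that rose. The difference between the tissues changed in 10 of the 25, against 6.26% of all genes, downward in 8 and upward in 2, and 9 shrank. Under the embryo block 6 changed downward and 0 upward, and 5 shrank. Tex101 (chromosome 7, 24668011 to 24672050) had 17.5 to 86.4 CPM with a median of 34.8 in Rnf2 epiblast and 34.4, 19.3, 57.4, 39.8 and 45.1 in Rnf2 ExE. Wild-type epiblast had 0 reads in 6 libraries and 0.726 CPM in the other, and wild-type ExE had 1.67 to 11.9 CPM. Both Rnf2 tissues lay above every wild-type library and overlapped each other, and the wild-type difference of 5.19 went to -0.16 (change -5.35 ± 0.975 SE, edgeR adjusted p 0.000871). Sycp1 (chromosome 3, 102818498 to 102936100) had 40.8 to 148.5 CPM in Rnf2 epiblast and 95.5, 144, 144, 93.3 and 148 in Rnf2 ExE, against 0 to 2.53 and 8.19 to 27.9 CPM in the wild-type tissues. Its difference went from 4.04 to 0.72 (change -3.32, edgeR adjusted p 0.000784).

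Not every germ cell gene lost a difference, and the group depends on the reference. Ddx4 rose by 4.05 in epiblast (edgeR adjusted p 5.96e-10) and by 3.45 in ExE (edgeR adjusted p 3.7e-08), from means of 8.73 and 6.40 CPM to 143.2 and 71.8, and its tissue difference did not change beyond the spread (-0.60, edgeR adjusted p 0.517). Fkbp6 rose in both tissues and shrank (change -1.87, edgeR adjusted p 0.00829), but missed the threshold against CastxBdf1 (edgeR adjusted p 0.672). Tex19.1, a germ cell gene that the placenta also expresses, stood at a mean of 733.6 CPM in Rnf2 ExE against 313.0 in wild-type ExE, and its difference stayed called in Rnf2 at 4.35 (edgeR adjusted p 1.5e-09) while its change of -2.25 (edgeR adjusted p 0.0145) missed the threshold without Rnf2 epiblast embryos 1, 2 and 8 (-1.58, edgeR adjusted p 0.0684). Without Rnf2 epiblast embryos 1, 2 and 8, the downward count was again 8 and the upward count was 0. Without Rnf2 ExE embryos 2, 5 and 6 it was 4 downward, and against CastxBdf1 it was 1. There Tex101 changed by -2.03 (edgeR adjusted p 0.353) and Sycp1 by -1.39 (edgeR adjusted p 0.267), where mean Tex101 levels were 1.59 CPM in epiblast and 5.70 in ExE.

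**Figure D3:**
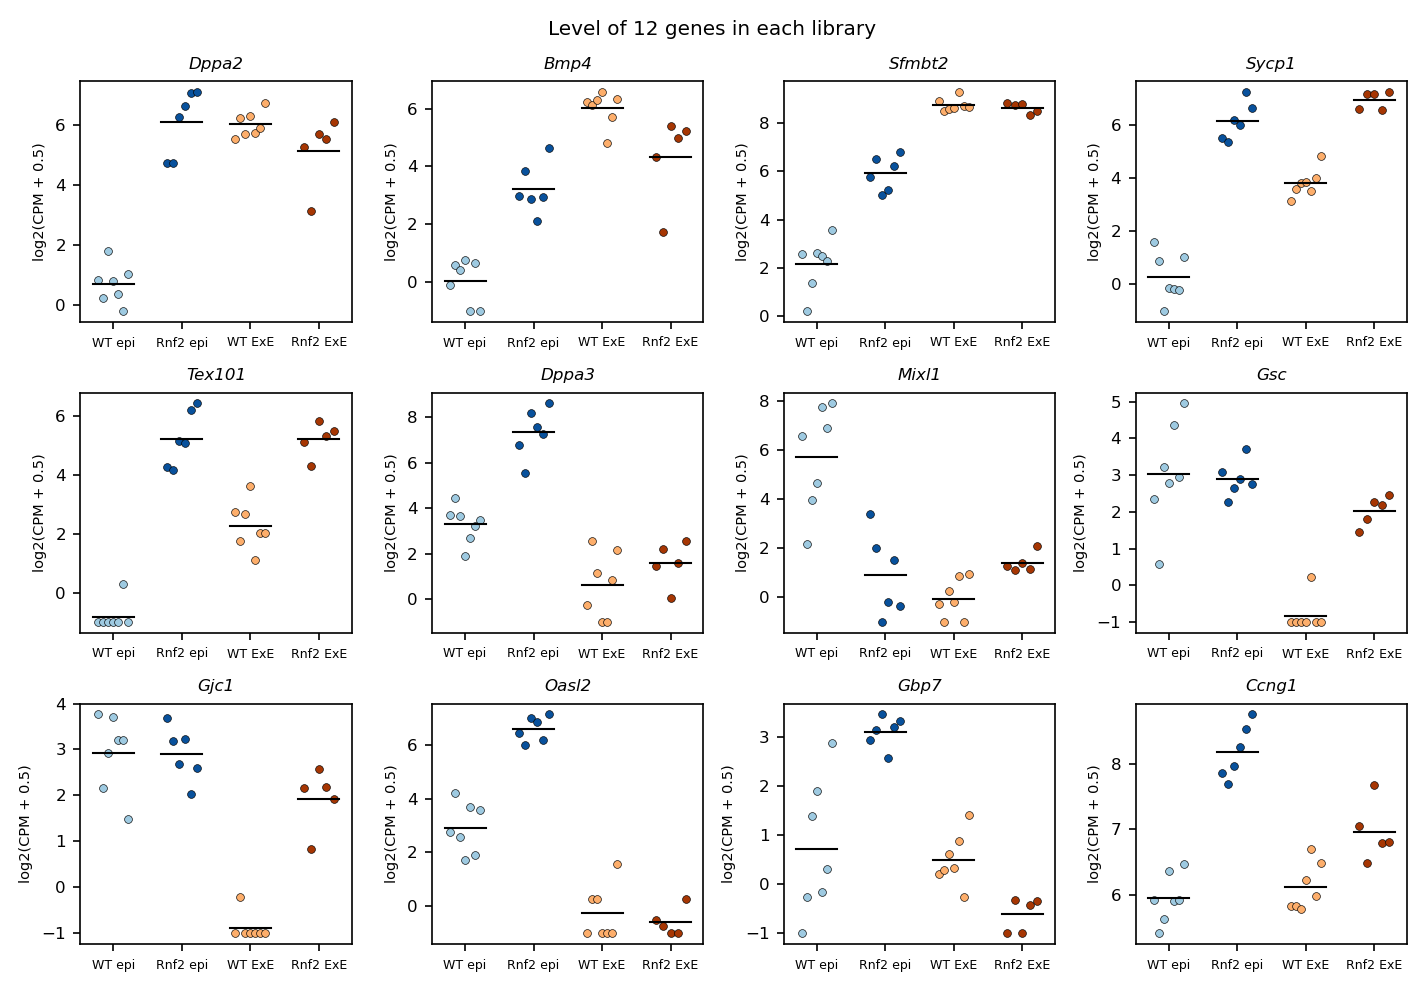
Log2(CPM + 0.5) of 12 genes in each library of Rnf2 and wild-type Bdf1xCast epiblast and ExE, with a line at each group mean. The Rnf2 tissues overlap for Dppa2, Sycp1 and Tex101, where the wild-type tissues are apart, and are far apart for Dppa3, Oasl2 and Gbp7.

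The lineages also drew together in the other direction, with epiblast genes lower in Rnf2 epiblast or present in Rnf2 ExE. Of 197 genes that were lower in ExE of the wild type and shrank, 97 fell in Rnf2 epiblast and 106 rose in Rnf2 ExE, and the median difference went from -2.65 to -0.74. In a list of 16 tested primitive streak and mesendoderm genes, 7 fell in Rnf2 epiblast, where 1421 of all 10943 genes fell, and 4 changed their difference, where 6.26% of all genes did, all upward and all by shrinking. Mixl1, a homeobox gene of the streak (chromosome 1, 180693042 to 180709055), had 0 to 10.03 CPM with a median of 1.36 in Rnf2 epiblast against 3.96 to 238.6 with a median of 94.8 in wild-type epiblast. Rnf2 ExE had 1.94, 1.66, 2.17, 1.71 and 3.71 CPM against 0 to 1.43 in wild-type ExE. In Rnf2 the tissues overlapped, and the change was 6.89 ± 1.428 (SE, edgeR adjusted p 0.00409; 6.68 and 0.0199 against CastxBdf1). It missed the threshold by limma voom with embryo as a random block and by edgeR in thinned libraries, with adjusted p up to 0.0766 in these 2 fits. The streak marker sum of the wild-type epiblasts ranged from 19.5 to 1024 CPM, and its part in these results was not tested. Without wild-type epiblast embryo 8, which held the highest sum, the change of Mixl1 was 6.604 (edgeR adjusted p 0.00593).

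Gsc and Mesp2, streak-stage transcription factors, arrived at the same narrowing from the ExE side. Gsc (chromosome 12, 104471208 to 104473236) had 2.24, 3.02, 4.33, 4.03 and 5.00 CPM in Rnf2 ExE, while 6 of 7 wild-type ExE libraries had 0 reads and 1 had 0.667 CPM. In epiblast it ran from 4.31 to 12.6 CPM in Rnf2 and from 0.991 to 30.5 in wild type. All Rnf2 ExE libraries lay above all wild-type ones, the epiblasts overlapped, and the difference changed by 5.47 ± 0.964 (SE, edgeR adjusted p 0.000605; 4.29 and 0.00883 against CastxBdf1). Mesp2 rose in ExE from a mean of 0.397 to 7.56 CPM (4.15, edgeR adjusted p 0.0011) and its difference changed by 4.94 (edgeR adjusted p 0.00402; 3.84 and 0.0301 against CastxBdf1). Hhex, a homeobox gene of anterior endoderm, changed by 5.54 (edgeR adjusted p 0.00479), but by 2.17 (edgeR adjusted p 0.31) against CastxBdf1. T, the defining gene of the streak, had a mean of 43.6 CPM in Rnf2 epiblast and 156 in wild-type epiblast, and its difference did not change beyond the spread (0.52, edgeR adjusted p 0.857). The count of 4 was 6 with the embryo block, 5 without Rnf2 epiblast embryos 1, 2 and 8, 3 without Rnf2 ExE embryos 2, 5 and 6, and 4 against CastxBdf1.

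Other epiblast genes detected in Rnf2 ExE were not of the streak list. Gjc1, a gap junction connexin (chromosome 11, 102799471 to 102819686), had 3.97, 1.27, 5.41, 4.03 and 3.29 CPM in Rnf2 ExE, whereas 6 of 7 wild-type ExE libraries had 0 reads and 1 had 0.359 CPM. Its epiblast levels overlapped, at means of 7.47 and 8.05 CPM, and the difference changed by 5.73 (edgeR adjusted p 0.00012; 5.29 and 0.00464 against CastxBdf1). The cell-cycle gene Ccnd1, chosen after its values were seen, had 7.80 to 23.6 CPM in Rnf2 ExE against 0 to 2.001 in wild-type ExE, and changed by 4.01 (edgeR adjusted p 5.04e-07; 6.30 and 4.12e-06 against CastxBdf1). Sfrp1, a secreted Wnt inhibitor, rose in ExE from a mean of 0.762 to 9.01 CPM and changed by 3.19 (edgeR adjusted p 0.00103; 2.32 and 0.0474 against CastxBdf1). Sox9, a transcription factor of several later lineages, was at 0 in all wild-type ExE libraries and at 0.429 to 1.62 CPM in Rnf2 ExE, at least 5.52-fold higher. Among epiblast markers in Rnf2 ExE, Fgf5 was at most 2.43 CPM, Pou3f1 at most 17.9, against 36.1 in wild-type ExE, and Utf1 at least 358.9, above its wild-type ExE range of 102.9 to 296. The part of the higher epiblast and visceral endoderm marker sums of Rnf2 ExE in these results was not tested.

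Developmental transcription factors and Hox genes, classic Polycomb targets, were looked at as 2 lists. Of 87 developmental transcription factors in the deposited table, 26 had enough reads to be tested. Of these 26, 16 rose in Rnf2 epiblast and 11 in Rnf2 ExE, where 2264 and 1160 of all 10943 genes rose. Factors silent in wild type enter the test only through the Rnf2 libraries. This favours members that rose, so nothing is read from these counts. The difference changed in 5 of the 26, against 6.26% of all genes, 2 upward and 3 downward, all of them by shrinking. Without Rnf2 ExE embryos 2, 5 and 6 this count was 1 upward and 1 downward. Tbx15, a T-box gene of the limb and skeleton, had a lowest value of 2.83 CPM and a median of 14.7 in Rnf2 epiblast (13.02 ± 6.12, SD, n = 6), 9.98, 2.63, 7.58, 5.74 and 7.29 in Rnf2 ExE, and 0 to 1.53 in wild-type epiblast. Its difference went from 4.67 to -0.92, a change of -5.59 (edgeR adjusted p 0.000218; -4.46 and 0.0318 against CastxBdf1). Gata4, a factor of endoderm and heart, rose in ExE from a mean of 0.245 to 5.07 CPM and changed by 4.10 (edgeR adjusted p 0.0105; 2.62 and 0.0993 against CastxBdf1). Irx2, which patterns several tissues, rose in epiblast and changed by -3.13 (edgeR adjusted p 0.0029; -3.47 and 0.0513 against CastxBdf1).

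Of 35 autosomal Hox genes in the deposited table, 10 had enough reads to be tested. All 10 rose in Rnf2 epiblast and 8 of the 10 in Rnf2 ExE, where 2264 and 1160 of all 10943 genes rose. A gene silent in wild type passes the read filter only through the Rnf2 libraries, so these counts were partly fixed by the filter. In the Rnf2 embryos 8 of the 10 stood lower in ExE than in epiblast, where 2907 of all 10943 genes did. Their median difference was -1.64 against -0.07 over all genes. A gene that passes the filter through Rnf2 epiblast alone is bound to be lower in ExE, so nothing is read from this count or median. The change of the difference was called for 0 of the 10 by edgeR, with 1 at an unadjusted p under 0.05, for 0 by DESeq2 and for 3 by limma voom with embryo as a random block. Hoxb7, chosen after its values were seen (chromosome 11, 96286645 to 96290163), had 15.2 to 32.9 CPM with a median of 26.1 in Rnf2 epiblast and 17.0, 10.1, 17.9, 13.2 and 17.4 in Rnf2 ExE. Wild-type epiblast had at most 0.363 CPM and wild-type ExE had 0 reads in all 7 libraries, so Hoxb7 was at least 102-fold higher in Rnf2 ExE than the floor of 3 reads over that group. Within Rnf2 the tissues overlapped in part and differed by -0.71 (edgeR adjusted p 0.0378). Hoxa9, also chosen after its values were seen, stood at 2.84 to 12.5 CPM in Rnf2 epiblast and at most 1.22 in Rnf2 ExE, with 0 reads in both wild-type tissues.

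**Figure D4:**
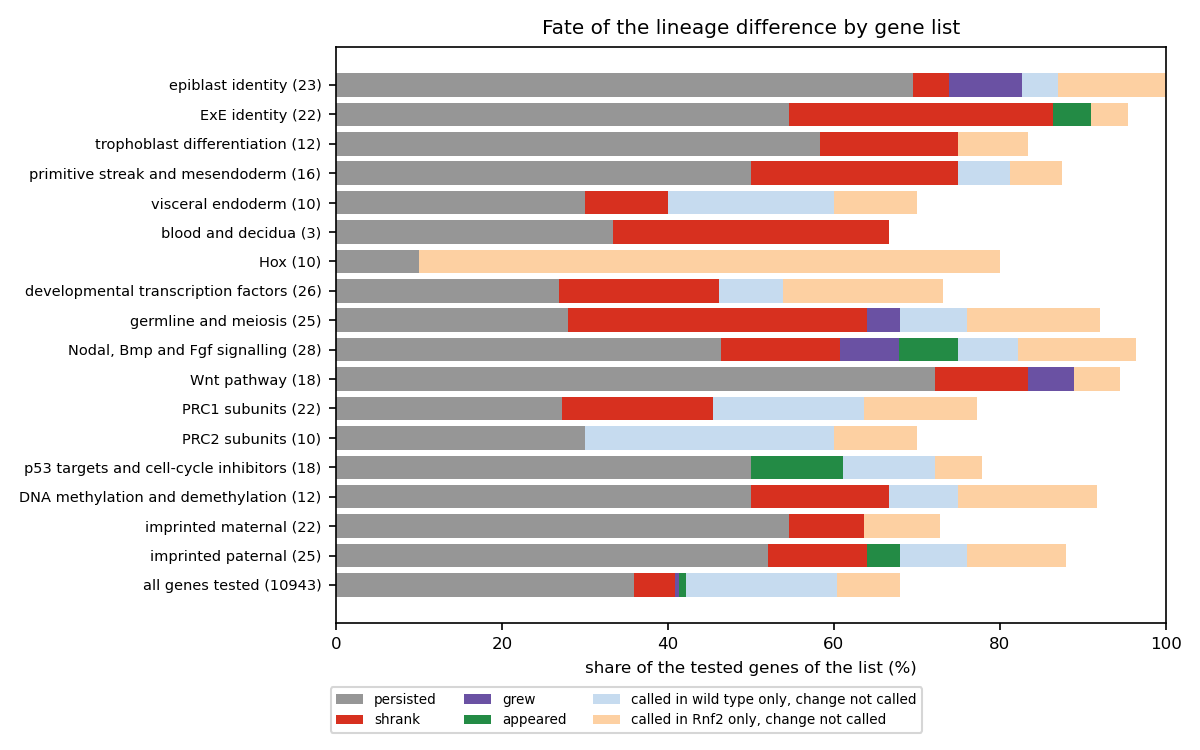
Share of the tested genes of each list, in percent, by the class of their difference between ExE and epiblast. The epiblast identity list is mostly persisted (16 of 23), the germline and meiosis list has the most genes that shrank (9 of 25), and the Hox list has no gene that shrank, grew or appeared.

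The differences that appeared or grew ran mostly 1 way, with a higher level in epiblast. Of the 93 that appeared, 73 were lower in ExE of Rnf2, with a median going from 0.01 to -1.70, and 43 of the 73 rose in Rnf2 epiblast while 30 fell in Rnf2 ExE. Of the 49 that grew, 46 were lower in ExE, with a median going from -2.12 to -4.97, and 28 of the 46 rose in epiblast while 26 fell in ExE. Without Rnf2 ExE embryos 2, 5 and 6 the counts were 22 and 15, against CastxBdf1 38 and 14, and with the embryo block the count that appeared was 35. Of the 93, 18 also appeared against CastxBdf1, and 9 of the 49 also grew.

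Gbp7, an interferon-inducible guanylate-binding protein (chromosome 3, 142530335 to 142550151), had 5.41 to 10.4 CPM with a median of 8.48 in Rnf2 epiblast and 0, 0.292, 0, 0.244 and 0.286 in Rnf2 ExE. Wild-type epiblast had 0 to 6.86 CPM and wild-type ExE 0.329 to 2.14. The wild-type tissues overlapped and the Rnf2 tissues did not, with a change of -4.56 ± 0.957 (SE, edgeR adjusted p 0.00328; -6.18 and 0.00113 against CastxBdf1; 0.068 without Rnf2 ExE embryos 2, 5 and 6). Il15ra, a cytokine receptor chain, appeared likewise, with 6.15 to 18.6 CPM in Rnf2 epiblast and at most 0.541 in Rnf2 ExE (change -5.58, edgeR adjusted p 0.00477; -2.97 and 0.323 against CastxBdf1). Parp10, an ADP-ribosyltransferase, stood at a mean of 15.3 CPM in Rnf2 epiblast and 0.617 in Rnf2 ExE (change -4.05, edgeR adjusted p 0.000218; -2.65 and 0.0614 against CastxBdf1).

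Oasl2, an interferon-inducible oligoadenylate synthetase-like gene (chromosome 5, 114896933 to 114912245), had 63.2 to 140.3 CPM in Rnf2 epiblast against 2.83 to 17.8 in wild-type epiblast, and 0.204, 0.0974, 0, 0 and 0.715 CPM in Rnf2 ExE. Its difference grew from -3.85 to -8.68 (change -4.83, edgeR adjusted p 0.0109). Against CastxBdf1, whose ExE libraries had 0 reads, the change was -0.49 (edgeR adjusted p 0.879), and without Rnf2 ExE embryos 2, 5 and 6 it was -4.14 (edgeR adjusted p 0.101). The rise in epiblast, 3.55 (edgeR adjusted p 3.15e-07), was thus the larger part of the change. Psmb8, a subunit of the immunoproteasome that was chosen after its values were seen, rose in epiblast from a mean of 8.94 to 271.9 CPM (4.91, edgeR adjusted p 5.03e-10) and less in ExE, from 1.44 to 4.43 (1.64, edgeR adjusted p 0.0275). Its change was -3.27 (edgeR adjusted p 0.0045; -2.13 and 0.126 against CastxBdf1). No list of interferon or antigen presentation genes was drawn up, so these genes are given singly.

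Gdf3 (122605402 to 122610071) and Dppa3 (122626423 to 122630271), which lie close together on chromosome 6, grew through a rise in epiblast. Gdf3, a ligand of the Nodal type, had 86.1 to 314.6 CPM with a median of 155.1 in Rnf2 epiblast against 0 to 3.63 in wild-type epiblast, and 0.407, 0.877, 1.62, 1.71 and 6.00 in Rnf2 ExE. The change was -4.31 (edgeR adjusted p 0.0327; -3.70 and 0.137 against CastxBdf1). Dppa3, a gene of germ cells and naive pluripotency known to protect DNA methylation in the zygote, had 47.1 to 390.2 CPM in Rnf2 epiblast against 3.23 to 21.5 in wild-type epiblast, with 2.24, 4.09, 0.541, 2.56 and 5.43 in Rnf2 ExE. Rnf2 epiblast lay above every wild-type library for both genes, and the ExE groups overlapped. Dppa3 changed by -3.37 (edgeR adjusted p 0.0214; -3.25 and 0.0818 against CastxBdf1), with an adjusted p of 0.209 in edgeR without Rnf2 ExE embryos 2, 5 and 6.

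Some genes that p53 induces stood higher in both Rnf2 tissues. Of 18 tested genes of a list of p53 targets and cell-cycle inhibitors, 13 rose in Rnf2 epiblast and 8 in Rnf2 ExE, and none fell, where 2264 and 1160 of all 10943 genes rose. The tissue difference changed in 2 of the 18, Ccng1 and Trp53inp1 (1 with the embryo block), against 6.26% of all genes, and nothing is read from that count. Ccng1, a p53-induced cyclin (chromosome 11, 40748551 to 40755315), had 206.9 to 431.8 CPM in Rnf2 epiblast and 133, 88.9, 203.5, 111 and 112 in Rnf2 ExE, against 42.3 to 88.4 and 54.6 to 104.0 in the wild-type tissues. No Rnf2 epiblast library overlapped either Rnf2 ExE or the wild type, and the difference went from 0.25 to -1.18 (change -1.42, edgeR adjusted p 0.00514, and 0.0502 with the embryo block). Trp53inp1, another p53 target, changed by -2.37 (edgeR adjusted p 0.00134, and 0.423 against CastxBdf1). The CastxBdf1 embryos had mean Ccng1 levels of 204.0 CPM in epiblast and 221.0 in ExE, above the Bdf1xCast wild type, and the change against them was -1.43 (edgeR adjusted p 0.542). Whether the injections that all knockouts received bear on these genes was not tested.

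Differences in favour of ExE appeared in 20 genes and grew in 3. Krt7, a keratin of simple epithelia and trophoblast (chromosome 15, 101412402 to 101427806), had 50.1, 50.8, 35.7, 34.0 and 22.0 CPM in Rnf2 ExE against 1.07 to 15.0 in wild-type ExE, and 4.91 to 15.7 in Rnf2 epiblast. The Rnf2 ExE libraries lay above all others, with a change of 2.21 (edgeR adjusted p 0.0269) that missed the threshold without embryo 2 (0.063), without embryo 4 (0.0607) and without Rnf2 epiblast embryos 1, 2 and 8 (0.1). Krt7 also missed it against CastxBdf1, without Rnf2 ExE embryos 2, 5 and 6, in thinned libraries and with no filter on low counts. Over 23 alternatives its change ran from 0.929 to 2.743, with edgeR adjusted p up to 0.599. Ndrg1, a stress-responsive gene (chromosome 15, 66929317 to 66969641), had 206.2 to 591.9 CPM in Rnf2 ExE and 1.76 to 25.0 in Rnf2 epiblast. Its difference grew from 2.66 to 5.36 (change 2.70, edgeR adjusted p 0.0241), with 0.0613 without ExE embryo 4 and 0.0804 without ExE embryos 2, 5 and 6, and it fell in Rnf2 epiblast by 1.78 (edgeR adjusted p 0.0124). In CastxBdf1 the Ndrg1 means were already 14.01 CPM in epiblast and 415.2 in ExE, and the change there was 0.41 (edgeR adjusted p 0.886). Slc37a4, a glucose-6-phosphate transporter, fell in Rnf2 epiblast from a mean of 24.2 to 10.6 CPM and appeared with a change of 1.58 (edgeR adjusted p 0.00938; 1.01 and 0.364 against CastxBdf1).

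Among signalling genes, ligands of the ExE lost part of their lineage difference. Of 28 tested genes of Nodal, Bmp and Fgf signalling, 8 changed their difference, all downward, of which 4 shrank, 2 grew and 2 appeared, with a median change of -1.07 against -0.04 and 6.26% of all genes changed. These were the ligands Bmp4, Bmp8b and Gdf3, the inhibitor Smad7, the receptors Fgfr1 and Fgfr4, the Fgf feedback inhibitor Spry4 and the Fgf-responsive transcription factor Etv5. Etv5 had 238.1 to 494.3 CPM in Rnf2 epiblast and 28.5, 6.92, 39.5, 34.9 and 38.1 in Rnf2 ExE, against 52.3 to 147.4 in wild-type ExE. All Rnf2 ExE libraries lay below all wild-type ones, and the difference grew from -2.17 to -3.68 (change -1.51, edgeR adjusted p 0.0197). The count was 6 with the embryo block, 9 downward and 1 upward without wild-type epiblast embryo 8, 5 without Rnf2 epiblast embryos 1, 2 and 8, 2 without Rnf2 ExE embryos 2, 5 and 6, and 0 against CastxBdf1. Of 18 tested genes of the Wnt pathway 13 persisted and 3 changed, where 35.9% and 6.26% of all genes did. Wnt6 and the receptor Fzd7 changed downward and Sfrp1 upward. With the embryo block there were 2 upward and 0 downward. The change of Fzd7, -1.29 (edgeR adjusted p 0.0377), missed the threshold in 9 of 23 alternatives, with adjusted p in edgeR or limma voom up to 0.371, among them the fits without Rnf2 epiblast embryo 5 (0.068), ExE embryo 2 (0.0755) or ExE embryo 4 (0.0802).

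The Polycomb genes themselves were examined as lists too. Of 22 tested PRC1 subunits, 4 changed their difference, against 6.26% of all genes, all by shrinking: Pcgf5, Cbx8, Scmh1 and Usp7. Pcgf5, a RING1B partner of a variant PRC1 (chromosome 19, 36347439 to 36460964), had 33.9 to 67.1 CPM in Rnf2 epiblast against 16.4 to 30.3 in wild-type epiblast, and 211, 177, 187, 196 and 178 in Rnf2 ExE against 113.6 to 203.1. It rose in epiblast by 1.13 (edgeR adjusted p 1.3e-05) and its difference changed by -0.97 (edgeR adjusted p 0.0123; -0.79 and 0.149 against CastxBdf1; -0.85 and 0.0536 without Rnf2 epiblast embryos 1, 2 and 8). Cbx8, which binds methylated histone H3 in canonical PRC1, rose in both tissues, and its change of -2.01 (edgeR adjusted p 0.0479) lost its call when any of 9 single libraries was left out. The count of 4 was 1 with the embryo block, 1 without Rnf2 epiblast embryos 1, 2 and 8, 0 without Rnf2 ExE embryos 2, 5 and 6, and 0 against CastxBdf1. Of 10 tested PRC2 subunits 3 persisted, against 35.9% of all genes. By edgeR 0 changed, with 5 at an unadjusted p under 0.05 and the smallest adjusted p at 0.131. Dnmt3l, a cofactor of de novo DNA methylation that overlaps Aire, stood at 23.9 to 202.0 CPM in Rnf2 epiblast against 2.64 to 24.4 in wild type and shrank by -3.28 (edgeR adjusted p 0.00223; -2.83 and 0.0586 against CastxBdf1).

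Embryos with a disrupted Eed, the PRC2 subunit, served as a second Polycomb group, and the tissue difference was compared directly between the 2 knockouts. It differed in 478 of 11825 genes (4.04%), 54 higher and 424 lower in Rnf2. The 424 had a median tissue difference of -1.64 in Rnf2 and 0.39 in Eed. Dppa2 did not differ (-0.97, edgeR adjusted p 0.619), and neither did Mixl1 (1.48, edgeR adjusted p 0.536) or Gsc (0.46, edgeR adjusted p 0.746), although with these spreads a difference of that size cannot be told from 0. Germline and meiosis genes did: 10 of 27 tested were lower in Rnf2 and 0 higher, among them Tex101 (-2.74, edgeR adjusted p 0.00834), Sycp1 (-1.65, edgeR adjusted p 0.00533) and Dppa3 (-4.29, edgeR adjusted p 0.000825). Of 22 p53 targets and cell-cycle inhibitors 4 were lower in Rnf2, Ccng1 by -1.88 (edgeR adjusted p 0.00196), with Cdkn1a, Trp53inp1 and Btg2. Il15ra differed by -3.88 (edgeR adjusted p 0.000887) and Psmb8 by -2.87 (edgeR adjusted p 0.00056). The count was 315 without Rnf2 ExE embryo 6, 728 by DESeq2 and 241 in thinned libraries.

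The reads over polymorphisms also gave the parent of each allele. In every group compared the mother was BDF1 and the father CAST, so parent and strain of an allele cannot be told apart here. The maternal share differed between ExE and epiblast in 247 of 8023 genes of the Rnf2 embryos (3.08%), more maternal in ExE for 114 and more paternal for 133, against 548 genes in the wild type (6.83%). The shift changed in 25 genes (0.312%), 13 to the maternal side and 12 to the paternal side. By limma on log2 ratios the change was called for 9 genes, and leaving out single libraries gave 13 to 26, with 13 without Rnf2 epiblast embryo 5 or ExE embryo 4. Among 16 tested maternally expressed imprinted genes 4 changed, all toward the paternal allele in ExE, and among 14 paternally expressed ones 1 did.

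The 4 genes, Ascl2, Tssc4, Cd81 and Phlda2, lie in 1 imprinted cluster on chromosome 7. Ascl2, a trophoblast transcription factor, had 62.9 to 70.4% maternal reads with a mean of 65.6% ± 3.09 in Rnf2 ExE (SD, n = 5), against 97.6 to 100% in wild-type ExE. In Rnf2 epiblast it had 49.0% ± 16.2 (n = 6) and in wild-type epiblast 65.6% ± 17.8 over the 5 libraries with at least 10 reads, which had 11 to 24. Every Rnf2 ExE library lay below every wild-type one, and the shift changed by -6.55 on the log2 scale of the maternal to paternal ratio (edgeR adjusted p 1.5e-05). Tssc4 went from 95.8% ± 3.86 in wild-type ExE (n = 7) to 67.7% ± 6.66 in Rnf2 ExE (n = 5), while the epiblasts stood at 63.5% and 64.3% (change -3.54, edgeR adjusted p 0.000114). Cd81, which overlaps R74862, went from 97.6% ± 2.82 to 77.2% ± 10.4 in ExE (change -3.08, edgeR adjusted p 0.0141, and 0.132 by limma on log2 ratios). Phlda2, a growth-restraining gene of the placenta, had 77.0, 77.0, 76.6, 62.5 and 74.0% in Rnf2 ExE against 93.0 to 99.0% in wild-type ExE, with 91.9% and 93.3% in the epiblasts. Its change of -3.87 (edgeR adjusted p 0.0387) lost its call in 8 of the 11 fits without 1 library, where the adjusted p of edgeR then ran from 0.0504 to 0.0638. The Phlda2 shares of Rnf2 ExE embryos 2, 4 and 7 and of all wild-type ExE libraries came from the rounded ratio alone. At shares near 99.0% such rounding moves the maternal to paternal ratio strongly, so the size of the change is imprecise.

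Several paternally expressed genes of trophoblast were more paternal in ExE than in epiblast of the Rnf2 embryos. Jade1 had 47.5% ± 7.00 maternal reads in Rnf2 epiblast (n = 6) and 9.79% ± 5.98 in Rnf2 ExE (n = 5), beside 47.7% ± 8.90 and 5.44% ± 1.72 in wild type (n = 7 each). The shift was -3.06 in Rnf2 (edgeR adjusted p 7.82e-09) and -4.04 in wild type, and its change did not pass the test (edgeR adjusted p 0.634). Gab1 went from 43.0% to 12.6% in Rnf2 (-2.43, edgeR adjusted p 0.000268), beside -3.84 in wild type (change 1.41, edgeR adjusted p 0.597). Smoc1 went from 58.4% to 20.3% (-2.52, edgeR adjusted p 0.0064, and 0.0864 by limma on log2 ratios), beside -5.77 in wild type (change 3.25, edgeR adjusted p 0.254). A change that misses the threshold does not show that these shifts were the same. Sfmbt2 differed from these: its reads in Rnf2 epiblast were 16.2% ± 9.05 maternal (n = 6, 258 to 962 reads), mostly paternal as in ExE. The ExE share was 4.88% ± 2.52 (n = 5) in Rnf2 and 0 to 0.199% as recovered in wild type. Wild-type epiblast had 58.2% ± 24.8 over the 5 libraries with at least 10 reads, which had 12 to 15. The change was 10.26 (edgeR adjusted p 0.000901). In wild-type ExE the shares of 0 came from the rounded ratio alone, and only that of embryo 2 was resolved by the score. A small maternal share could thus be hidden there, and the size of this change is imprecise. The Rnf2 tissue difference of Sfmbt2 itself, -1.93 (edgeR adjusted p 0.00851), missed the threshold by limma on log2 ratios (adjusted p 0.259) and in edgeR without Rnf2 epiblast embryos 1, 2 and 8 (adjusted p 0.0891).

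**Figure D5:**
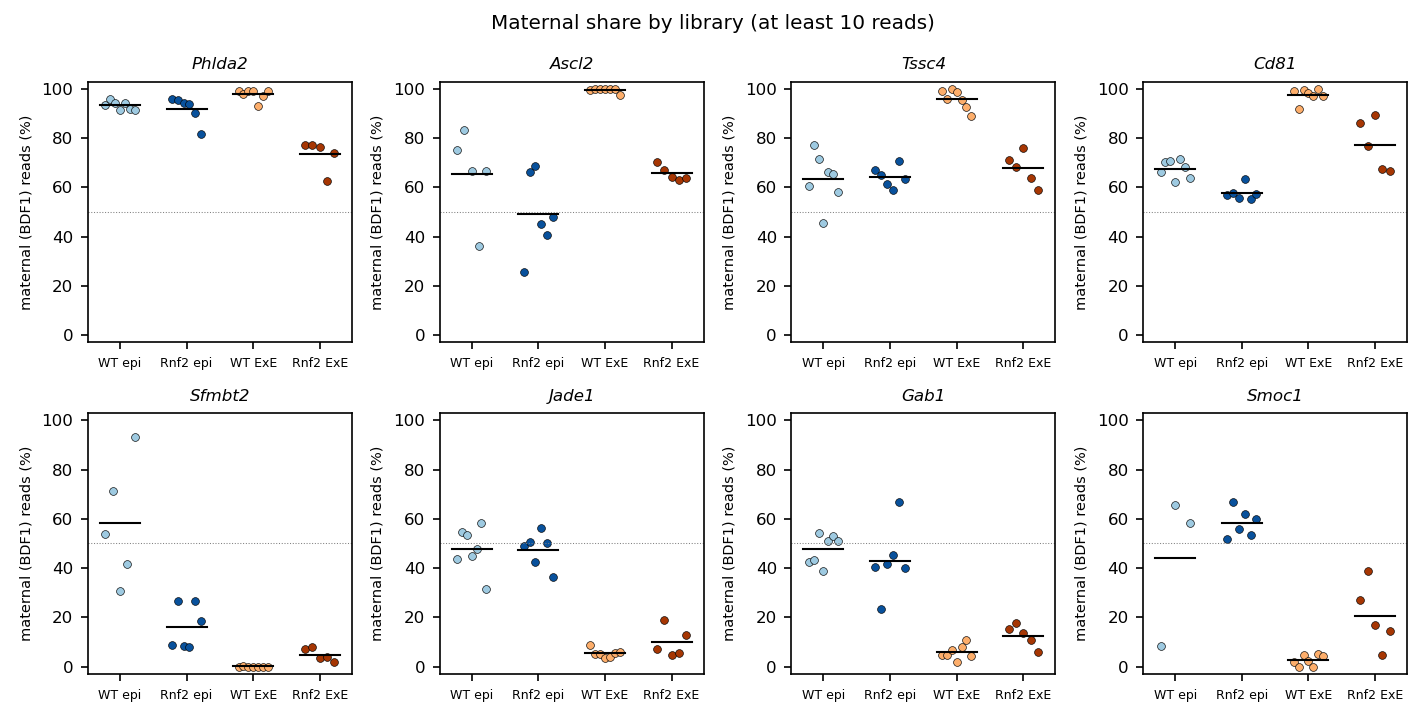
Maternal share of reads, in percent, for 8 imprinted genes in each library with at least 10 reads. Phlda2, Ascl2, Tssc4 and Cd81 are lower in Rnf2 ExE than in wild-type ExE, where their shares are 89.1 to 100%, while Jade1, Gab1 and Smoc1 are mostly paternal in ExE of both genotypes.

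The total level of imprinted genes was compared between the lineages as well. Of 22 tested maternally expressed genes 12 persisted and 2 shrank, and of 25 paternally expressed genes 13 persisted, 3 shrank and 1 appeared. Over all genes the difference persisted in 35.9% and changed in 6.26%. With the embryo block 2 of the 22 and 2 of the 25 changed. H19, a maternally expressed noncoding RNA, rose in Rnf2 epiblast to 54.4 to 650.9 CPM from 16.02 to 80.04 in wild type, and its difference shrank by -2.54 (edgeR adjusted p 0.012). Without Rnf2 epiblast embryos 1, 2 and 8 this change was -1.19 (edgeR adjusted p 0.216), and against CastxBdf1 it was -0.18 (edgeR adjusted p 0.966). Gnas, which codes for a G protein subunit and overlaps Nespas, had 60.4, 53.1, 89.3, 66.3 and 74.6 CPM in Rnf2 ExE against 15.1 to 45.0 in wild-type ExE. All Rnf2 ExE libraries lay above all wild-type ones while the epiblasts overlapped, and the difference went from -2.60 to -0.93 (change 1.67, edgeR adjusted p 0.000498; 1.26 and 0.0498 against CastxBdf1). Mest, a paternally expressed gene, rose in Rnf2 epiblast from a mean of 32.6 to 64.4 CPM and appeared with a change of -1.26 (edgeR adjusted p 0.00398; -1.08 and 0.141 against CastxBdf1).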

How the data were processed

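The authors deposited 1 table of read counts over polymorphic positions for 30546 RefSeq genes, of which 29557 are autosomal and used here. For each library it also holds the deposited allelic ratio (the CAST share of reads less 0.5) and an allelic score (a signed −log10 p), per the file headers. STAR 2.5.0, HTSeq and mm10 are named in the submitters' processing notes, and how counting treated strand is not given in the sources used here. Counts over polymorphisms understate genes with few of them, and no level is compared between genes.

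Tissue differences were tested on counts with edgeR 4.0.16 (quasi-likelihood, TMM scaling, filterByExpr) in R 4.3.3, in 1 fit of the 4 Rnf2 and Bdf1xCast groups with Benjamini-Hochberg adjustment at 0.05, all two-sided, and the change is the Rnf2 difference less the wild-type one. Levels are CPM of the autosomal and X total. Maternal and paternal reads were recovered from count and ratio. The recovered reads matched the deposited score within 0.0015 for 99.986% of 712130 values, while 3620 values, with 7.87% of the reads, came from the rounded ratio alone. Among these were the ExE values of Sfmbt2 and Phlda2 in most libraries. For allelic shifts, edgeR tested genes for which every group had 3 or more libraries with 10 or more reads, with limma 3.58.1 as an alternative. DESeq2 1.42.0, limma voom, thinning, other scaling and filters, sex as a covariate, left-out libraries and the CastxBdf1 reference were alternatives. Those without groups of libraries that stood apart were chosen after seeing the data. The steps were tested on simulated data.

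Same-numbered tissues come from the same embryo. Deviations from group means correlated at 0.062 to 0.13 in the 3 Rnf2 pairs (median 0.073, against -0.004 over 27 unmatched pairs) and at a median of 0.169 in the 7 wild-type pairs. The reported fit leaves the block out. Where the block moves a count over all genes by over 1.5 times, the blocked count is given. For gene lists blocked counts are given for some counts only.

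The genes and lists were chosen with earlier results of these data known. Named are Rnf2, the cell type markers, up to 5 genes of each class and direction with the largest change (for those that persisted, the largest Rnf2 difference), at least 5 CPM in 1 group and tissues that do not overlap, up to 5 changed members of each list, and up to 6 imprinted genes for each allelic test. Others are said to be chosen after their values were seen.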

Additional observations from a re-analysis of the deposited data

Results flagged for a closer look

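The lineage difference differed between Rnf2 and wild type for 685 genes and between Rnf2 and Eed for 478, and the allelic shift changed for 25. Single genes with a called change were Dppa2 (log2 change -6.76), Bmp4 (-5.26), Sfmbt2 (-3.98), Tex101 (-5.35), Sycp1 (-3.32) and H19 (-2.54), whose ExE excess was reduced. Mixl1 (6.89), Gsc (5.47), Gjc1 (5.73) and Gnas (1.67) had a reduced epiblast excess. Dppa3 (-3.37), Gdf3 (-4.31), Oasl2 (-4.83), Psmb8 (-3.27), Gbp7 (-4.56) and Ccng1 (-1.42) moved to the epiblast side, and Ndrg1 (2.70) to the ExE side. On the allelic scale these were Ascl2 (-6.55), Phlda2 (-3.87), Tssc4 (-3.54), Cd81 (-3.08) and Sfmbt2 (10.26).

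A sample far from the others of its group by Dixon's test was found in 23 of 128 groups (18.0%). The test assumes normal values, and a group with 0 in all libraries but 1 is flagged by construction. The 128 also include groups with equal values or too few libraries, which could not be flagged. The share is therefore not set against chance. In Rnf2 epiblast these were Elf5 in embryo 8 (50.0 CPM), Mixl1 in embryo 1 (10.03 CPM) and the maternal share of Cd81 in embryo 5 (63.19%). In Rnf2 ExE they were embryo 7 for Mixl1 (3.715 CPM), Gdf3 (6.001 CPM) and Oasl2 (0.7145 CPM), and embryo 6 for the maternal share of Phlda2 (62.53%). Wild-type epiblast embryo 8 stood apart for Krt19 (16.77 CPM), Ddx4 (16.77 CPM), H19 (80.04 CPM) and the maternal share of Snhg14 (4.444%), embryo 7 for Tex101 (0.7259 CPM) and embryo 4 for Psmb8 (22.2 CPM). In wild-type ExE they were embryo 6 for Gsc (0.6669 CPM), Gnas (45.02 CPM) and Phlda2 (93.0% maternal), embryo 2 for Gjc1 (0.3585 CPM), Sfmbt2 (0.1992% maternal) and Cd81 (91.77% maternal), embryo 8 for Sycp1 (27.87 CPM), Oasl2 (2.501 CPM) and Ascl2 (97.62% maternal), and embryo 4 for Gdf3 (1.862 CPM).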

How the results depend on the processing

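The count of genes that differ between the Rnf2 tissues stayed within 1.5 times of 5192 under every alternative run except without Rnf2 ExE embryos 2, 5 and 6 (3283), and leaving out single libraries gave 4737 to 5200. The other counts moved more. The 685 changes became 331 with the replicate block as a fixed term, 435 after thinning, 257 against CastxBdf1 and 204 without Rnf2 ExE embryos 2, 5 and 6, with 571 to 688 without single libraries. The 542 that shrank became 261 with the block, 342 after thinning, 205 against CastxBdf1, 341 without Rnf2 epiblast embryos 1, 2 and 8 and 167 without ExE embryos 2, 5 and 6, with 437 to 549 without single libraries. The 49 that grew became 31 after thinning, 14 against CastxBdf1 and 15 without ExE embryos 2, 5 and 6 (37 to 55 without single libraries). The 93 that appeared became 35 with the fixed block, 140 with embryo as a random block in limma voom, 38 against CastxBdf1 and 22 without ExE embryos 2, 5 and 6 (74 to 100). The count that persisted ranged from 3632 to 4031 without single libraries. The difference from Eed was called for 728 genes by DESeq2, 241 after thinning and 315 to 493 without single libraries, lowest without Rnf2 ExE embryo 6. Allelic calls in Rnf2 were 97 by limma on log2 ratios and 104 with the block (178 to 256 without single libraries), and allelic changes 9 and 10 (13 to 26, with 13 without epiblast embryo 5 or ExE embryo 4 and 15 without ExE embryo 2). Fgfr4 reversed against CastxBdf1, to 0.347 (edgeR adjusted p 0.92). The cause of these shifts was not tested, except that fewer libraries or reads enter by construction. Rnf2 libraries were deeper than wild-type ones, and genes at 0 reads are limited by depth.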

Other observations

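The lists not described above are given as counts, where 35.9% of all genes persisted and 6.26% changed. Of 12 tested genes of trophoblast differentiation, 7 persisted, and 7 rose in Rnf2 epiblast. Of 10 visceral endoderm genes 3 persisted and 1 shrank, Gata4, while 2 shrank with the embryo block. Of 12 genes of DNA methylation and demethylation 6 persisted and 2 shrank, Dnmt3l and the demethylation enzyme Tet3, while 1 shrank with the embryo block. The change of Tet3, 1.07 (edgeR adjusted p 0.0369), missed the threshold in 13 of 23 alternatives, 6 of them fits without 1 Rnf2 library, and was 0.121 (edgeR adjusted p 0.931) against CastxBdf1. Of 3 tested blood and decidua genes 1 persisted and 1 shrank, Cryab, which codes for a small heat-shock protein.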
